A study of Mus musculus with 9 samples.

Results

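The genes described here are 10 targets of the transcriptional co-activator YAP that lie outside the CCN family of matricellular proteins: Ajuba, Amotl2, Ptpn14, Ankrd1, Myof, Ccdc80, F3, Axl, Arhgef17 and Dock5. They were chosen by name, with earlier results of these data known, and each matched 1 row among the 50600 genes of the deposited count and TPM tables. RNA-seq had been performed on 9 cultures of mouse intestinal epithelium grown as organoids in Matrigel. Of these, 6 were WT organoids of genotype WT and labelled strain C57BL/6, set up from the small intestine of 3 mice and kept for 24 h in a medium of which 50% was conditioned medium (cM). Their titles name cM from tumoroids (T-cM) for 3 libraries and cM from organoids (WT-cM) for the other 3. The remaining 3 libraries were untreated tumoroids, set up from intestinal tumours of 3 Apc1638N/+ mice whose strain is labelled MIX.

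The treatment fields of the 6 organoid libraries name the opposite medium to the titles, throughout. Names follow the titles here (T-cM-titled organoids, WT-cM-titled organoids), and every direction between them would turn round if the treatment fields were right. The contrast of tumoroids with all 6 organoid libraries does not depend on this. Both cM had been cleared of vesicles by ultracentrifugation before use. By the study's methods, WT-cM was conditioned in a medium with R-spondin, whereas the tumoroid cultures that gave T-cM were kept without it. The time of conditioning could differ as well. These differences between the cM cannot be told apart from the cells that conditioned them. Tumoroids also differed from organoids in more than genotype, since the donors were older, the labelled strain was another (the study's methods describe a mixed background for its mice in general), no cM was added and, by the study's methods, the tumour cultures were kept without R-spondin. These differences cannot be told apart from genotype. The tumoroids were bulk cultures, not clones, from animals that carry the mutant Apc allele in every cell.

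YAP and its paralogue TAZ (Wwtr1) carry no DNA-binding domain and act on chromatin through the TEAD factors. The Hippo kinases, ending in LATS1 and LATS2, phosphorylate YAP and keep it out of the nucleus. When the kinases are restrained, by tension, flattening or loss of neighbours, YAP enters the nucleus and its targets are transcribed. In the intestine the programme is best known from the epithelium that regrows after injury and from tumours. Several targets feed back on the pathway itself: Ajuba binds the LATS kinases at junctions under tension, Amotl2 is an angiomotin that holds YAP at junctions, and Ptpn14 is a tyrosine phosphatase that binds YAP in the cytoplasm. Apart from the cofactor Ankrd1, the others are effectors at the membrane, in the matrix or at the cytoskeleton.

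Libraries held 16541635 to 25170966 counts. Levels are given as CPM (counts scaled to a common library size with TMM factors) where a gene is compared with itself, and as the deposited TPM (a unit normalised for transcript length) where genes are compared with each other. Differences are log2 fold changes with their standard error (SE) from edgeR's quasi-likelihood test, with Benjamini-Hochberg adjustment over the 16208 genes that reached a TPM of 1 in at least 1 library; all 10 targets were among them. On the TMM scale the median gene moved by 0.16 between organoids and tumoroids, and on the log2(TPM + 1) scale by 0.52, so that TPM levels lean upwards in tumoroids. The labelled epithelial identity was checked with 9 epithelial markers, all of them detected, whose summed level was 10014 to 12570 CPM in organoids and 6530 to 7412 CPM in tumoroids. In tumoroids 5 of the 9 fell (Krt20, Vil1, Cdx1, Krt19 and Krt8), Krt18 rose, and Cdh1, Cdx2 and Epcam did not pass the edgeR test. Over all genes tested, 20.8% were called lower and 29.6% higher in the same fit. The differentiation keratin Krt20 was at 562 to 922 CPM in organoids and at 0.816 to 7.69 CPM in tumoroids, whereas the simple-epithelial keratin Krt18 went from 410 to 723 CPM to 1065 to 1584 CPM. Because the cultures were sequenced in bulk, fewer cells of a type and less RNA per cell cannot be told apart. Fibroblast markers summed to at most 4.96 CPM in any library, and 5 of 9 of them, among them Col3a1 and Lum, never passed 3 counts.

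The targets fell into those present in normal organoids and those barely transcribed there. Dock5, F3, Ajuba, Myof and Amotl2 had a TPM of at least 1 in every organoid library, whereas Arhgef17, Ptpn14, Ccdc80, Axl and Ankrd1 had at most 22 counts in any. In WT-cM-titled organoids the mean TPM ran from F3 (35.3 ± 7.90, SD, n = 3) and Dock5 (28.3 ± 3.39) through Ajuba (7.54 ± 1.73), Myof (3.24 ± 0.693) and Amotl2 (2.09 ± 0.715) to Arhgef17 (0.197 ± 0.101) and Ptpn14 (0.0567 ± 0.0321). The ranges of F3 and Dock5 overlapped, as did those of Myof and Amotl2. In T-cM-titled organoids Dock5 (32.3 ± 4.48) and F3 (27.6 ± 6.05) overlapped, followed by Ajuba (15.5 ± 2.45), Myof (5.58 ± 1.51) and Amotl2 (2.35 ± 0.200), each below the one before it in every library. In tumoroids the order was another. Ajuba (188 ± 109 TPM) and Myof (174 ± 122) stood at the top, followed by F3 (94.8 ± 50.6), Amotl2 (74.2 ± 50.5), Ankrd1 (49.1 ± 59.0), Ccdc80 (35.8 ± 20.8), Ptpn14 (19.98 ± 8.41), Dock5 (18.2 ± 5.09) and Arhgef17 (14.3 ± 4.22). Each of these overlapped with its neighbour in the order, and only Axl (1.46 ± 1.63) stood below the next gene without overlap.

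**Figure D1:**
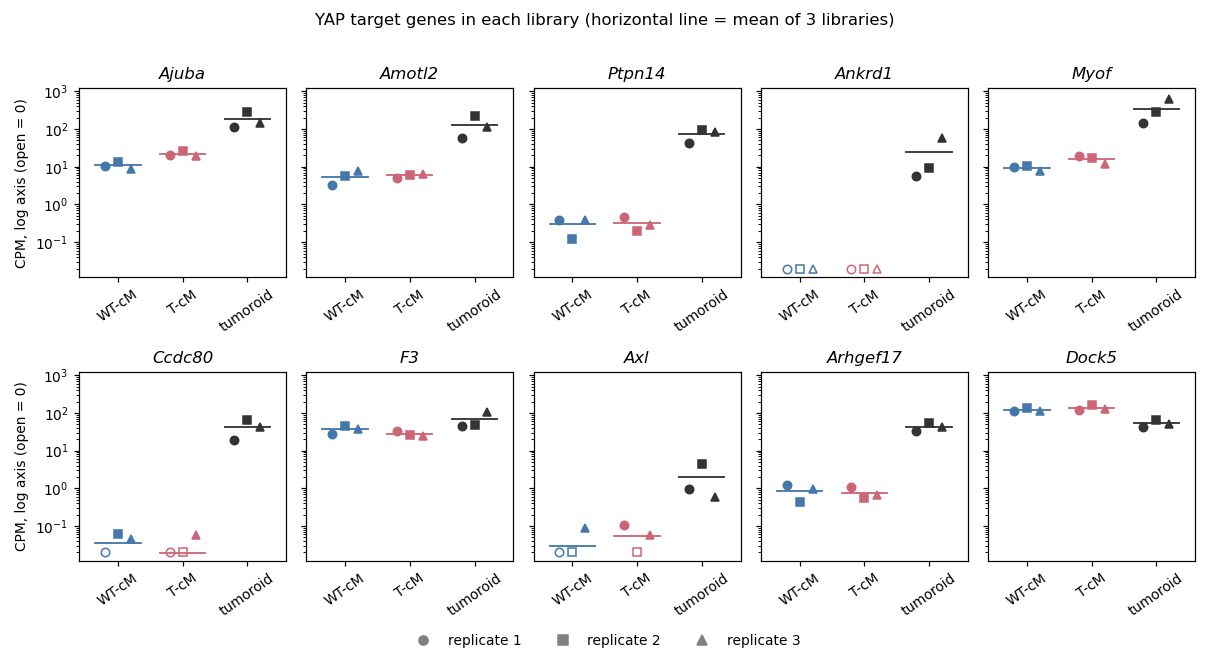
CPM of each YAP target gene (log axis) in 3 WT-cM-titled organoid, 3 T-cM-titled organoid and 3 tumoroid libraries. Symbols mark replicates, horizontal lines the mean of 3, and open symbols libraries with 0 counts. Tumoroids lie above all organoids for 8 genes, below them for Dock5, and overlap them for F3.

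Promoter sequence was read for 7 of the 10 genes from the RefSeq table of build GRCm38.p6, leaving Ccdc80, Arhgef17 and Dock5 unmatched; RefSeq starts can differ from the Gencode gene limits given further on. The 250 bases before the transcript start were searched on both strands for 3 motifs. The TEAD core was GGAATG, read as its reverse complement on the other strand. The AP-1 site was TGANTCA. The TATA box was TATAAA. The TEAD core was found in 5 of the 7 promoters, against 12.6% of all 32851 promoters in the table. The AP-1 site was found in 1 of the 7, against 6.75% of all, and the exact string TATAAA in none of them, against 12.4%. The variant TATATAA near the end of the Ankrd1 window was not counted by this search. The promoters below are those of the genes on which the later results turn, written 5′ to 3′ along the gene, with TEAD cores and AP-1 sites in capitals. Ajuba and Myof are the pair that changed between media, Ptpn14 and Ankrd1 are genes that were close to silent in organoids, and F3 is the promoter with AP-1 sites.
Ajuba, chr14:54577662-54577911, minus strand: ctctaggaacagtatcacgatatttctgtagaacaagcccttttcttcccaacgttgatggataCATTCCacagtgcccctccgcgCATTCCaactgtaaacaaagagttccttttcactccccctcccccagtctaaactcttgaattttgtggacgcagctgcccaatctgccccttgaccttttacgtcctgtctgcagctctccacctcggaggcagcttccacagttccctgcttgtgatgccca
Myof, chr19:38043578-38043827, minus strand: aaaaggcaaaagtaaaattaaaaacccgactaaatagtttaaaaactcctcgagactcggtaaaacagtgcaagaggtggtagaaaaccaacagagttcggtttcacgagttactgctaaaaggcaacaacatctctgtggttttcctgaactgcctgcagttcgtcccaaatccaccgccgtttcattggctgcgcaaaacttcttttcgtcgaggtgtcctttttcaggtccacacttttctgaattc
Ptpn14, chr1:189728018-189728267, plus strand: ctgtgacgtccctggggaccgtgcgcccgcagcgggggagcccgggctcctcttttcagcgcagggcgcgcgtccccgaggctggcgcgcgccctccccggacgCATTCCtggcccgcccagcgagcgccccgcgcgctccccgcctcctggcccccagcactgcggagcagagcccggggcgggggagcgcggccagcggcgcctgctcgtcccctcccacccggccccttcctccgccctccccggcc
Ankrd1, chr19:36119845-36120094, minus strand: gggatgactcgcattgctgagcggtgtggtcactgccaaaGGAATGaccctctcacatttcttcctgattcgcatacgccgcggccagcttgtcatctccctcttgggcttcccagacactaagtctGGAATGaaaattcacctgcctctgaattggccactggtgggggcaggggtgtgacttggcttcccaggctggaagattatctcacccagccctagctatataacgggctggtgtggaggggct
F3, chr3:121723287-121723536, plus strand: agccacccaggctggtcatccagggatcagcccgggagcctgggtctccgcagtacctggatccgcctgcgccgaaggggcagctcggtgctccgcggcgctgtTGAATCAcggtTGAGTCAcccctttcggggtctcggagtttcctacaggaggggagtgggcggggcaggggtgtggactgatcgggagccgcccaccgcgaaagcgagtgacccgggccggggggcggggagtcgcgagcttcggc

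Ajuba carried TEAD cores starting 186 and 164 bases before its start, and Ankrd1 at 210 and 123 bases. Ptpn14 had a single core at 146 bases, Amotl2 at 65 bases and Axl at 233 bases. The F3 promoter had no TEAD core but 2 AP-1 sites, at 146 and 135 bases. Myof had none of the 3 motifs in this window. Base composition varied widely, from 42.8% G and C in Myof to 80.8% in Ptpn14, beside a median of 52.4% over all promoters. These matches describe the letters of the window and show no binding.

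The question addressed by the first comparison was whether organoids differed in YAP target expression according to the cM they received. Of the 10 targets, 2 rose in T-cM-titled organoids, Ajuba and Myof, and none fell. Over all 16208 genes, 5.03% were called higher and 5.05% lower in the same fit. Counting only changes beyond 1 on the log2 scale left Ajuba, where 0.673% of all genes were called higher and 0.432% lower, and Ajuba itself was under 1 without replicate 3 (0.97). The median log2 fold change of the 7 targets with more than 3 counts in an organoid library was 0.18, and that of all genes tested was 0.

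Ajuba (ENSMUSG00000022178.10, chr14:54567472-54577558 of GRCm38, minus strand) had 20.6, 25.9 and 19.6 CPM in T-cM-titled replicates 1, 2 and 3. In WT-cM-titled replicates 1, 2 and 3 it had 10.3, 13.4 and 8.77 CPM. All T-cM-titled libraries lay above all WT-cM-titled ones, a separation that 5.12% of all genes showed (5.28% the reverse). The log2 ratios within the 3 same-numbered pairs were 0.99, 0.95 and 1.16, a narrow spread. Ajuba was thus higher by 1.05 on the log2 scale (SE 0.12, edgeR adjusted p = 3.9e-07).

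Myof (ENSMUSG00000048612.15, chr19:37899036-38043577, minus strand) encodes myoferlin, a ferlin that acts in membrane fusion and repair. It had 19.1, 16.96 and 11.8 CPM in T-cM-titled replicates 1, 2 and 3. In the WT-cM-titled replicates it had 10.1, 10.5 and 7.62 CPM. The groups did not overlap, and replicate 3 was the lowest in both. The paired log2 ratios were 0.92, 0.69 and 0.63, and the fitted change was 0.76 (SE 0.13, edgeR adjusted p = 1.3e-04).

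These calls rested on the pairing by replicate number and on replicate 2, and were also lost with limma on log2(TPM + 1), which changes scale and test together and called no gene (2690 at unadjusted p under 0.05). The changes on that scale were 0.96 for Ajuba and 0.62 for Myof (adjusted p = 0.28 for both). Without the replicate block, no target and no gene at all passed (edgeR, 904 genes at unadjusted p under 0.05), with log2 fold changes of 1.04 for Ajuba (adjusted p = 0.60) and 0.77 for Myof (adjusted p = 0.82). Without replicate 2 the changes were 1.08 (adjusted p = 0.16) and 0.78 (adjusted p = 0.24), and the only gene called among all tested was Ranbp3l.

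**Figure D2:**
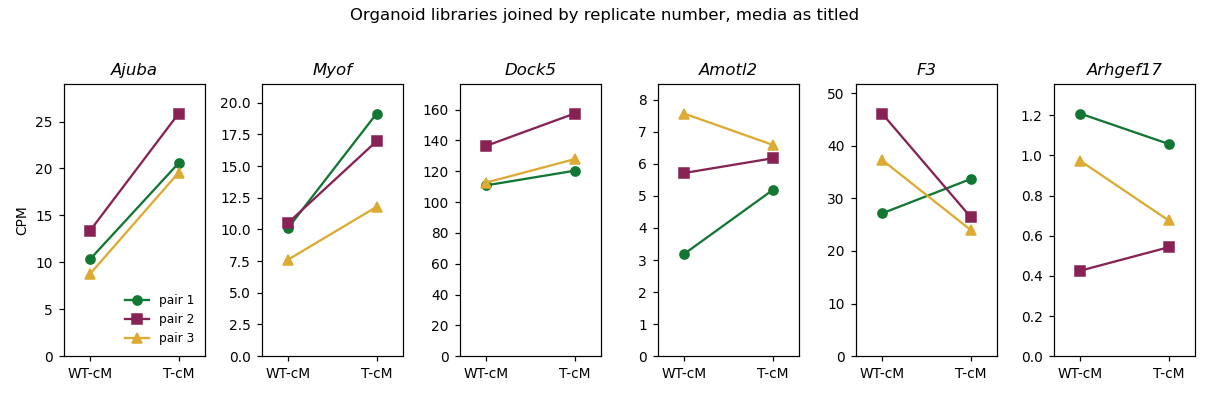
CPM (axes start at 0) of 6 YAP target genes in organoid libraries, with lines joining the WT-cM-titled and T-cM-titled library of the same replicate number. All 3 lines rise for Ajuba, Myof and, by a smaller ratio, Dock5, while those of Amotl2, F3 and Arhgef17 cross or run in both directions.

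The other feedback genes did not pass the test between media. Amotl2 (ENSMUSG00000032531.15, chr9:102716672-102733418, plus strand) had 5.18, 6.17 and 6.59 CPM in T-cM-titled and 3.19, 5.71 and 7.57 CPM in WT-cM-titled replicates 1, 2 and 3. The WT-cM-titled libraries spanned the T-cM-titled ones (log2 fold change 0.18, SE 0.18, edgeR adjusted p = 0.63). Ptpn14 (ENSMUSG00000026604.17, chr1:189728268-189876695, plus strand) had 3 to 9 counts per T-cM-titled library and 2 to 9 per WT-cM-titled library, so that little could be detected at this depth (log2 fold change 0.08, SE 0.64, adjusted p = 0.99). Both values changed sign when replicate 1 was left out.

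F3 (ENSMUSG00000028128.13, chr3:121723537-121735048, plus strand) encodes tissue factor, the receptor for factor VII that starts coagulation. It had 33.7, 26.5 and 24.0 CPM in T-cM-titled and 27.2, 46.1 and 37.3 CPM in WT-cM-titled replicates 1, 2 and 3. Pair 1 thus ran against pairs 2 and 3, with log2 ratios of 0.31, -0.80 and -0.64. The fitted change was -0.36 (SE 0.13) and did not pass (edgeR adjusted p = 0.088). Without replicate 1 it was -0.71 (adjusted p = 2.6e-08), and without the TPM filter -0.37 (adjusted p = 0.0093).

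Dock5 (ENSMUSG00000044447.4, chr14:67752135-67933442, minus strand), an exchange factor that activates the small GTPase Rac, was the most highly counted target in organoids. It had 120.4, 157.5 and 127.9 CPM in T-cM-titled and 110.9, 136.5 and 112.6 CPM in WT-cM-titled replicates 1, 2 and 3. It was higher in the T-cM-titled library of all 3 pairs, as 18.9% of all genes were (22.3% were lower in all 3), but the change was small and not called (log2 fold change 0.18, SE 0.08, edgeR adjusted p = 0.16). Arhgef17 (ENSMUSG00000032875.8, chr7:100869752-100932107, minus strand), a guanine nucleotide exchange factor, had 0.543 to 1.06 CPM in T-cM-titled and 0.426 to 1.21 CPM in WT-cM-titled libraries (log2 fold change -0.19, SE 0.39, adjusted p = 0.86). No fold is given for Ankrd1, Ccdc80 and Axl, which had at most 2 counts in each organoid library, at or under the floor of 3 counts (0.133 to 0.204 CPM).

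The second comparison asked how tumoroids differed from normal organoids. All 10 targets changed: 9 rose in tumoroids and Dock5 fell. Background was high in this contrast, with 29.6% of all genes called higher and 20.8% called lower. Against WT-cM-titled organoids alone 8 targets rose and Dock5 fell (background 23.4% and 18.5%), and with T-cM-titled organoids as the reference 9 rose and Dock5 fell (background 25.3% and 19.2%). The median log2 fold change of the targets was 5.08, unchanged with Ankrd1 at its lower bound, beside 0.16 over all genes tested. Of the 10, Arhgef17, Ptpn14, Ccdc80, Axl and Ankrd1 reached a TPM of 1 in tumoroids alone and so passed the filter only through the group where they were high; the count and the median describe the targets and carry no further weight. Every tumoroid library lay above every organoid library for 8 targets, as it did for 25.6% of all genes, and below for Dock5, as for 20.2%. This contrast shares its organoid libraries with the comparison of media, so the 2 sets of values are set side by side without a test of their likeness.

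**Figure D3:**
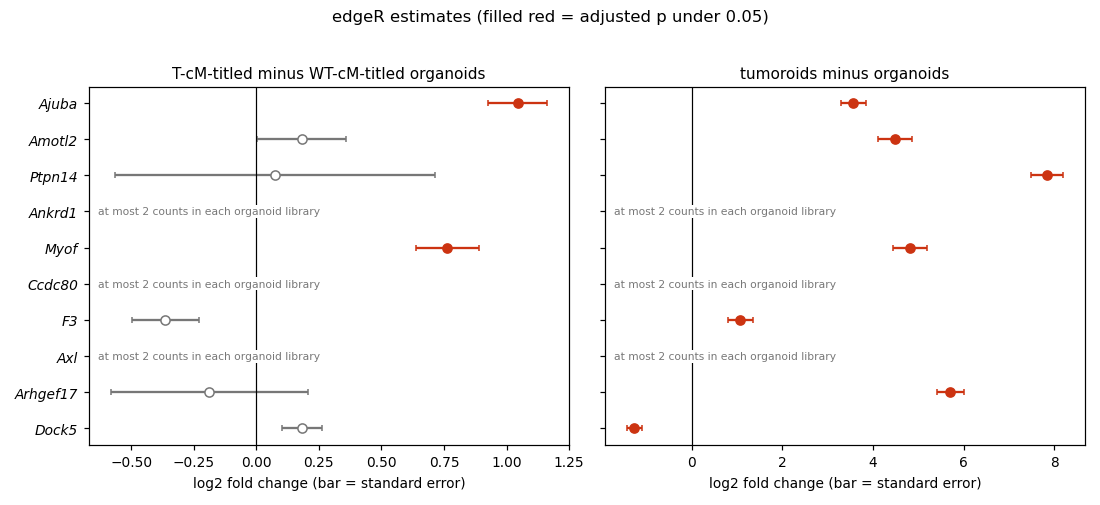
Log2 fold change with its SE (bars) of each YAP target gene between organoids in different media (left) and between tumoroids and organoids (right; the 2 axes differ in scale). Filled red points passed the edgeR test at adjusted p under 0.05, and no estimate is drawn for the 3 genes with at most 2 counts in every organoid library. Ajuba and Myof pass on the left, and all 7 drawn genes pass on the right, with Dock5 alone below 0.

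Among the 3 feedback genes, Ptpn14 had the largest ratio between tumoroids and organoids. It had 43.6, 96.9 and 83.8 CPM in tumoroid replicates 1, 2 and 3, beside 0.122 to 0.476 CPM (median 0.333) in the 6 organoid libraries. It rose by 7.85 on the log2 scale (SE 0.36, edgeR adjusted p = 9.6e-07), and the ratio of mean CPM was 240.4. Its exons overlap those of Gm26574 on the other strand, which had at most 1 count in any library. Amotl2 had 58.4, 218.2 and 110.3 CPM in tumoroids and 3.19 to 7.57 CPM (median 5.94) in organoids, a rise of 4.49 (SE 0.38, adjusted p = 1.4e-05). Ajuba had 110.1, 291.2 and 147.5 CPM in tumoroids and 8.77 to 25.9 CPM (median 16.5) in organoids, a rise of 3.57 (SE 0.28, adjusted p = 8.5e-06). For all 3 genes the lowest tumoroid was replicate 1 and the highest replicate 2, and no tumoroid came near the organoids.

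Ankrd1 (ENSMUSG00000024803.8, chr19:36111961-36120099, minus strand), an ankyrin-repeat cofactor best known from stressed muscle and a standard readout of YAP activity, was at 0 counts in all 6 organoid libraries. In tumoroid replicates 1, 2 and 3 it had 129, 248 and 1681 counts, or 5.85, 9.22 and 57.7 CPM. Against the floor of 3 counts per organoid library (0.169 CPM on average), mean expression was at least 144-fold higher in tumoroids, and that of the lowest tumoroid at least 34.7-fold higher (edgeR adjusted p = 1.0e-03). The 6 muscle markers summed to 0.0687 to 0.317 CPM in tumoroids and 0 to 0.122 CPM in organoids; Myh11 had 4, 2 and 2 counts in tumoroid replicates 1, 2 and 3 and at most 1 in organoids. The part of such cells in the Ankrd1 value was not tested.

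Myof had 148.1, 280.1 and 611.0 CPM in tumoroid replicates 1, 2 and 3, and 7.62 to 19.1 CPM (median 11.1) in organoids. It rose by 4.82 (SE 0.38, edgeR adjusted p = 8.9e-06), a ratio of means of 27.3. Ccdc80 (ENSMUSG00000022665.14, chr16:45093402-45128077, plus strand) encodes a secreted matrix-associated protein. It had 19.03, 62.8 and 41.2 CPM in the tumoroids, from 420, 1689 and 1200 counts, and 3 counts in all organoid libraries together. The ratio of the pooled levels was 1535 (exact 95% interval 525 to 7445, covering counting error only; adjusted p = 1.5e-06). Set over the floor of 3 counts per organoid library, as for Ankrd1, the mean tumoroid level was 243 times and the lowest 113 times that floor. Ccdc80 is well known from fibroblasts. The 9 fibroblast markers summed here to 2.38 to 4.47 CPM in tumoroids and 2.04 to 4.96 CPM in organoids, most of it from Vim and Pdgfrb. Col3a1 and Lum were at 0 in all 9 libraries, whereas Col1a1 had 7, 7 and 12 counts in tumoroid replicates 1, 2 and 3 and at most 2 in any organoid library, and Pdgfrb had 4, 3 and 52 counts in tumoroids and 8 to 24 in organoids. The part of such cells in the Ccdc80 value was not tested.

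The receptors differed in size of change. F3 had 46.1, 48.7 and 107.8 CPM in tumoroid replicates 1, 2 and 3 and 24.0 to 46.1 CPM (median 30.4) in organoids. The lowest tumoroid and the highest organoid library were level, and the rise of 1.07 (SE 0.28, edgeR adjusted p = 0.010) leaned on replicate 3. Without that tumoroid it was 0.54 (adjusted p = 0.055), and with the WT-cM-titled reference 0.87 (adjusted p = 0.062). Axl (ENSMUSG00000002602.16, chr7:25757273-25788705, minus strand), a receptor tyrosine kinase of the TAM family, stayed low: 0.952, 4.50 and 0.584 CPM in tumoroids, from 21, 121 and 17 counts, and 5 counts over all organoid libraries. The ratio of the pooled levels was 44.2 (exact 95% interval 18.6 to 138, counting error only; adjusted p = 9.0e-04), and 16.1 (6.34 to 52.5) without tumoroid replicate 2, an alternative added after the data were seen. The mean tumoroid level was 11.9 times and the lowest 3.46 times the floor of 3 counts per organoid library.

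Axl is also a gene of macrophages. Of the immune markers, Csf1r was at 2.72, 20.4 and 4.50 CPM in tumoroid replicates 1, 2 and 3, highest in the same library as Axl. Ptprc, which marks all leukocytes, was at 0.181, 0.706 and 0.206 CPM there, and Cd3e was at 0 in all 9 libraries. Itgam, a myeloid marker, lay lower in tumoroids (0.227 to 0.409 CPM) than in every organoid library (0.660 to 1.46 CPM), and the macrophage marker Adgre1 was at 0 counts in all tumoroids and at most 2 in organoids. The 6 immune markers together made 3.13 to 21.6 CPM in tumoroids and 0.824 to 5.07 CPM in organoids. The part of such cells in the Axl value was not tested.

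The exchange factors went in opposite directions. Arhgef17 had 34.0, 54.1 and 41.6 CPM in tumoroid replicates 1, 2 and 3, beside 0.426 to 1.21 CPM (median 0.825) in organoids. It rose by 5.71 (SE 0.31, edgeR adjusted p = 1.4e-06), with the narrowest spread among tumoroids of the 9 targets that rose. The microRNA gene Mir3102 lies within its exons on the same strand. Dock5 had 41.8, 64.8 and 51.8 CPM in tumoroids and 110.9 to 157.5 CPM (median 124.1) in organoids. Every tumoroid lay below every organoid library, and the fall was -1.27 (SE 0.17, adjusted p = 2.2e-04). On the log2(TPM + 1) scale the fall was -0.73 (limma adjusted p = 0.0072), beside the upward shift of all genes on that scale.

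The targets did not all follow the same order among the 3 tumoroids. Replicate 2 had the highest CPM for 7 of them (Ajuba, Amotl2, Ptpn14, Ccdc80, Axl, Arhgef17 and Dock5) and replicate 3 for the remaining 3 (Ankrd1, Myof and F3). Replicate 1 was lowest for 9, the exception being Axl, which was lowest in replicate 3. The share of all genes that was highest or lowest in each tumoroid was not counted, so these numbers describe the targets alone. The highest tumoroid exceeded the lowest by 9.88 times for Ankrd1, 7.70 times for Axl, 4.12 times for Myof and 3.74 times for Amotl2. For Arhgef17 and Dock5 it did so by 1.59 and 1.55 times. The 5 endothelial markers together made 1.41 to 6.05 CPM in tumoroids, highest in replicate 3, and 1.09 to 1.65 CPM in organoids. Their members ran in different directions: in tumoroid replicates 1, 2 and 3 Cdh5 had 1, 1 and 54 counts, Tek 4, 7 and 53, Vwf 60, 25 and 64 and Pecam1 5, 5 and 5, the last below every organoid library in CPM, and Kdr was at 0 in all 9 libraries. Their part in the Ankrd1, Myof and F3 values of that library was not tested. Whole-library likeness was also lower among tumoroids (Pearson r of log2 CPM across genes 0.939 to 0.964) than within the organoid groups (0.981 to 0.990); genes are not independent replicates.

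**Figure D4:**
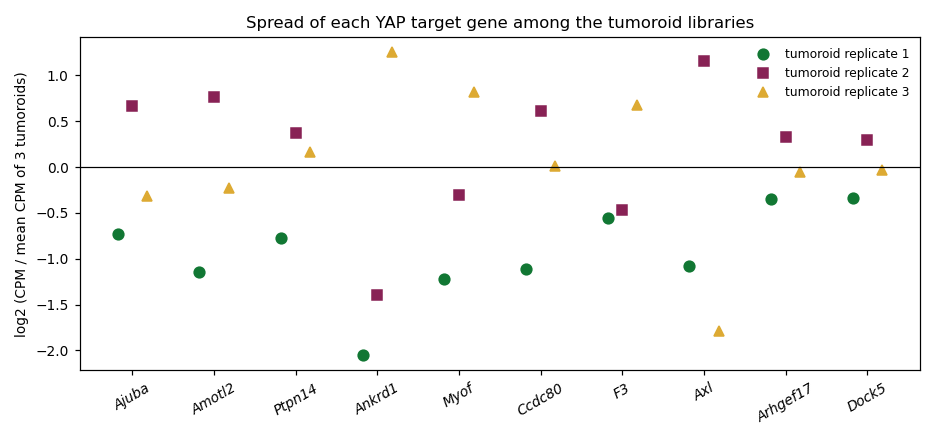
Log2 ratio of the CPM of each tumoroid library to the mean of the 3 tumoroids, for each YAP target gene. Replicate 2 is highest for 7 genes and replicate 3 for Ankrd1, Myof and F3, and the spread is widest for Ankrd1 and Axl.

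Each target was then set beside its closest relatives, on the TPM scale for levels and by the same fits for changes, those in tumoroids being against both organoid groups. Of 21 relatives listed, 13 passed the filter; between media 4 rose (Amotl1, Wtip, Dock1 and Ptpn21) and 2 fell (Tyro3 and Arhgef10l), beside 5.03% and 5.05% of all genes, and in tumoroids 9 rose and 2 fell (Mertk and Fer1l6), beside 29.6% and 20.8% of all genes. Amotl1, Arhgef10 and Fer1l4 had passed the filter only through tumoroids. The counts between media were 0 both without the replicate block and without replicate 2, and without replicate 3 Tyro3 and Arhgef10l alone were called. DESeq2 called 3 of these relatives (Tyro3, Arhgef10l and Dock1) and limma voom 2 (Tyro3 and Arhgef10l).

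Ptpn21, the phosphatase closest to Ptpn14, was well detected where Ptpn14 was not. It stood at 8.76 ± 0.282 TPM in WT-cM-titled organoids (SD, n = 3), 11.5 ± 1.16 in T-cM-titled organoids and 24.3 ± 7.97 in tumoroids, where Ptpn14 reached 19.98 ± 8.41. Between media Ptpn21 was higher by 0.38 (SE 0.11, edgeR adjusted p = 0.018), and in tumoroids by 0.73 (SE 0.18, adjusted p = 0.0067). Tumoroid and organoid libraries overlapped in CPM, and against T-cM-titled organoids alone the call was lost (0.54, adjusted p = 0.059).

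The angiomotins Amotl1 and Amot rose in tumoroids, as Amotl2 did. Amotl1 went from 0.263 ± 0.125 TPM in WT-cM-titled organoids to 22.4 ± 13.3 TPM in tumoroids (log2 fold change 5.32, SE 0.43, edgeR adjusted p = 1.1e-05), and Amot from 11.5 ± 4.91 to 48.1 ± 19.9 TPM (1.53, SE 0.27, adjusted p = 0.0011). Amotl1 was the angiomotin that changed between media: 3.12, 2.04 and 1.63 CPM in T-cM-titled and 1.32, 1.34 and 0.531 CPM in WT-cM-titled replicates 1, 2 and 3, a rise of 1.14 (SE 0.29, adjusted p = 0.011). Whether it changed more than Amotl2 was not tested.

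The Ajuba family is made of Ajuba, Limd1 and Wtip, LIM proteins that share the LATS-binding role. Wtip rose with Ajuba between media, from 3.94 ± 0.816 to 6.28 ± 0.769 TPM (log2 fold change 0.67, SE 0.18, edgeR adjusted p = 0.013), and in tumoroids to 24.5 ± 6.57 TPM (1.77, SE 0.23, adjusted p = 1.6e-04). Limd1, the most abundant of the 3 in WT-cM-titled organoids at 43.6 ± 8.40 TPM, gave log2 fold changes of 0.02 (SE 0.08, adjusted p = 0.95) between media and -0.09 (SE 0.11, adjusted p = 0.51) in tumoroids, although its TPM was higher there. In tumoroids Ajuba, at 188 TPM, stood above Limd1 at 58.7 ± 3.56 TPM without overlap.

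The TAM receptors, which bind Gas6 and protein S on dying cells, exchanged places. Mertk, known for the uptake of dying cells, was the main TAM receptor of organoids at 30.6 ± 4.65 TPM in WT-cM-titled libraries and was at 2.34 ± 1.66 TPM in tumoroids, a fall of -4.20 (SE 0.38, edgeR adjusted p = 2.2e-05). Tyro3 went the other way, from 4.26 ± 1.64 to 38.6 ± 10.97 TPM, a rise of 3.20 (SE 0.33, adjusted p = 4.2e-05). Axl, at 1.46 TPM, had the lowest mean of the 3 in tumoroids, with a range that overlapped that of Mertk. Between media Tyro3 was lower in the T-cM-titled library of each pair (8.51, 3.73 and 2.82 CPM against 14.5, 8.88 and 8.63 CPM), by -1.15 (SE 0.16, adjusted p = 1.3e-05). Mertk gave -0.12 between media (SE 0.09, adjusted p = 0.48).

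Of 9 ligands and partners listed, 8 were tested. In tumoroids 2 rose and 3 fell, beside 29.6% and 20.8% of all genes. Between media 1 rose and 1 fell, beside 5.03% and 5.05% of all genes. Gas6 (log2 fold change 1.42, SE 0.42, edgeR adjusted p = 0.018) and the coagulation inhibitor Tfpi (1.87, SE 0.67, adjusted p = 0.042) rose in tumoroids, but Tfpi was at 11.8, 18.2 and 0.653 CPM in replicates 1, 2 and 3, and neither gene passed against the WT-cM-titled reference alone (adjusted p = 0.073 and 0.098). Tfpi also missed the threshold with the T-cM-titled reference (adjusted p = 0.099). The inhibitor Tfpi2 (-2.99, SE 0.48, adjusted p = 6.6e-04), factor X (F10, 0 counts in all tumoroids and 1 to 22 in organoids, adjusted p = 0.0032) and the Dock partner Elmo2 (-0.38, SE 0.12, adjusted p = 0.028) fell, Elmo2 without passing against T-cM-titled organoids alone (adjusted p = 0.073). Between media Pros1, which encodes protein S, was higher by 0.64 (SE 0.15, adjusted p = 0.0063), and F10 was lower, at 1 to 4 counts in T-cM-titled and 8 to 22 in WT-cM-titled libraries (adjusted p = 0.019). Neither was called between media by DESeq2, by limma voom or without replicate 3. F10 reached a TPM of 1 in WT-cM-titled organoids alone, so it passed the filter only through the group where it was high.

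Other ferlins and Dock proteins moved in either direction. Fer1l4 rose in tumoroids as Myof did (4.66, SE 0.43, edgeR adjusted p = 2.3e-05), Fer1l6 fell (-2.51, SE 0.25, adjusted p = 3.8e-05), and the muscle ferlin Dysf had at most 2 counts in any library. While Dock5 fell in tumoroids, Dock4 rose by 2.51 (SE 0.33, adjusted p = 1.9e-04). Dock1, the founding Rac exchange factor of the family, gave 0.30 (SE 0.17, adjusted p = 0.17) in tumoroids and rose by 0.49 (SE 0.10, adjusted p = 0.0012) between media. Mean TPM of Dock1 in tumoroids, 44.1 ± 12.5, lay above that of Dock5 at 18.2 ± 5.09, with no overlap. Beside Arhgef17, the exchange factors Arhgef10 (4.78, SE 0.30, adjusted p = 3.7e-06) and Arhgef10l (2.51, SE 0.21, adjusted p = 1.2e-05) rose in tumoroids, and Arhgef10l was lower between media (-0.87, SE 0.15, adjusted p = 1.4e-04).

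**Figure D5:**
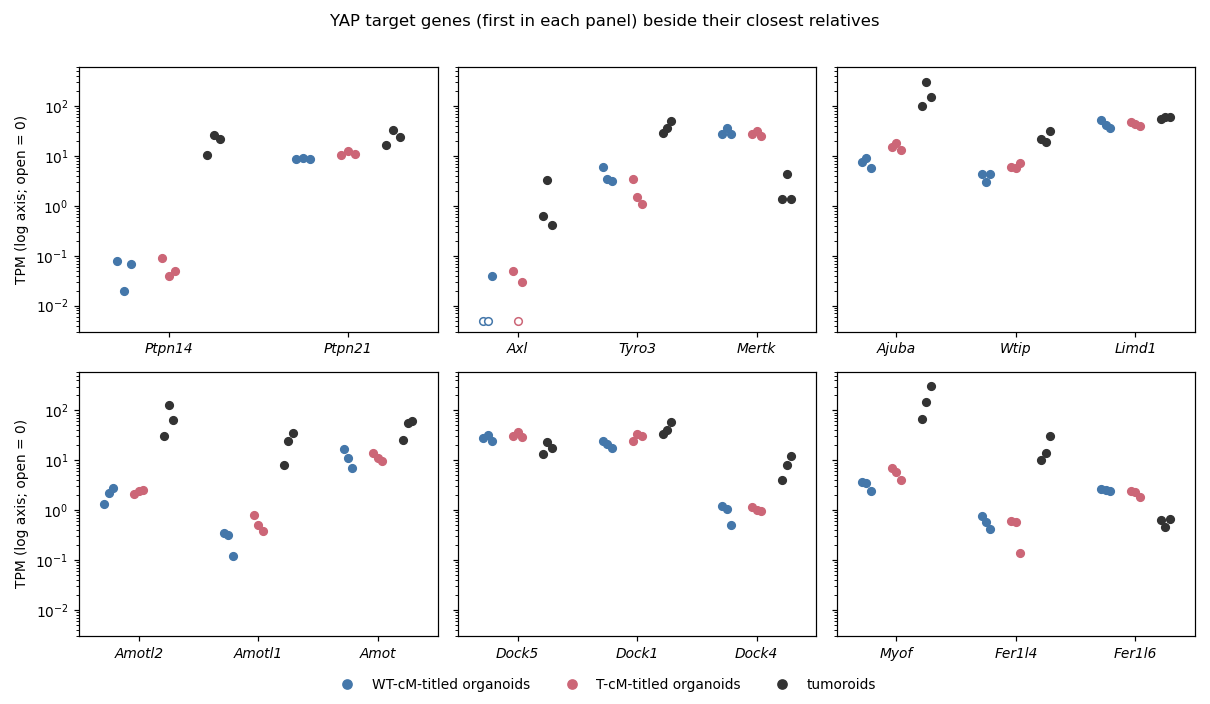
TPM (log axis) of 6 YAP target genes, first in each panel, beside close relatives, with 3 libraries per group in blue (WT-cM-titled organoids), red (T-cM-titled organoids) and black (tumoroids); open symbols mark a TPM of 0. Ptpn14 meets Ptpn21 only in tumoroids, Mertk and Tyro3 change places, and Limd1 differs less between groups than Ajuba does.

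The pathway upstream of these genes was measured in the same fits. Of 16 Hippo core genes, all tested, 3 rose between media and none fell (5.03% and 5.05% of all genes did): Tead4 (1.33, SE 0.21, edgeR adjusted p = 5.2e-05), the LATS activators Wwc2 (1.24, SE 0.17, adjusted p = 7.3e-06) and Wwc1 (0.26, SE 0.08, adjusted p = 0.030). None of the 3 was called without the replicate block or without replicate 2. Wwc1 was also not called by limma voom, DESeq2, the newer quasi-likelihood form or without replicate 3, where Tead4 and Wwc2 were. Tead4 had 4.55, 6.11 and 4.17 CPM in T-cM-titled and 1.92, 2.43 and 1.59 CPM in WT-cM-titled replicates 1, 2 and 3. Yap1 itself gave -0.05 between media (SE 0.08, adjusted p = 0.82) and 0.27 in tumoroids (SE 0.14, adjusted p = 0.14).

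In tumoroids 8 Hippo core genes rose and Mob1b fell (-0.70, SE 0.19, edgeR adjusted p = 0.012), beside 29.6% and 20.8% of all genes. By contrast, on the log2(TPM + 1) scale limma called 12 higher and 0 lower, with 7675 of all 16208 genes called higher and 1939 lower. Wwtr1, which encodes TAZ, was at 1.15 to 2.71 CPM in the 6 organoid libraries and at 38.7 to 68.9 CPM in tumoroids (log2 fold change 4.61, SE 0.32, edgeR adjusted p = 5.2e-06). Others that rose were Tead2 (4.48, SE 0.58, adjusted p = 1.8e-04), Wwc2 (3.50, SE 0.23, adjusted p = 4.3e-06), Tead4 (2.97, SE 0.26, adjusted p = 1.8e-05), Vgll4 (1.03, SE 0.17, adjusted p = 7.1e-04) and Stk3 (1.01, SE 0.17, adjusted p = 9.7e-04). In tumoroids the mean TPM of Wwtr1 was 36.4 ± 13.3 and that of Yap1 48.3 ± 9.03, with overlapping ranges.

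Of 13 further YAP targets listed, 11 were tested. None passed between media; Lats2, a YAP target and YAP kinase, came closest (0.49, SE 0.16, edgeR adjusted p = 0.051; higher in 3 of 3 pairs). At an unadjusted threshold of 0.05, which 3568 of all 16208 genes passed, Lats2 and Crim1 (0.23) were higher and Gadd45a (-0.29) was lower. DESeq2 and limma voom called 0 of the 11, while Lats2 was called without the TPM filter, and Crim1 (higher) and Gadd45a (lower) without replicate 1. In tumoroids 10 of the 11 rose and none fell, Nuak2 being the gene that did not pass (0.23, SE 0.16, adjusted p = 0.26). Over all genes 29.6% were called higher, and Ctgf, Fjx1, Nt5e, Rbms3 and Tgfb2 reached a TPM of 1 in tumoroids alone, so they passed the filter only through the group where they were high. Gadd45a was not called against WT-cM-titled organoids alone (0.50, edgeR adjusted p = 0.15), and its tumoroid and organoid libraries overlapped in CPM.

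Patterns over the 9 libraries were compared by the mean absolute difference of log2 CPM after centring each gene, as a description. The genes nearest to Ptpn14 were Tmem150c (0.301), Runx2 (0.323), Enah (0.336), Lifr (0.379) and Sema3f (0.397). The nearest to it of the other 9 targets was Ccdc80, at rank 25 (0.574). The genes nearest to Myof were Esyt3 (0.213), Erich2os (0.253), Amotl1 (0.269), Abcg1 (0.285) and Pcdhb5 (0.285). Erich2os is annotated as an opposite-strand transcript, and the strand setting of the counting is not known. The nearest to Myof of the other 9 was Ajuba, at rank 160 (0.530).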

How the data were processed

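Poly(A) RNA of 9 cultures was sequenced from stranded libraries and, per the labels, aligned with STAR to mm10; the counting tool and its strand setting are not given in the sources used here. The authors deposited raw counts per gene and TPM, a unit scaled per transcript length. Counts were fitted with edgeR 4.0.16 (TMM, quasi-likelihood F test, R 4.3.3) over the genes that reached TPM 1 anywhere. The comparison of media used 6 libraries and blocked on replicate number; the study fitted a sample effect. Tumoroids were compared with the mean of both organoid groups in all 9 libraries without a block, with Benjamini-Hochberg adjustment and calls at adjusted p under 0.05. Same-numbered organoid libraries deviated together (r = 0.546, 0.338 and 0.547), and the labels state 3 mice. limma 3.58.1 and DESeq2 1.42.0 served as alternatives. The scripts were tested on simulated data. SE is the absolute log2 fold change over the square root of F.

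The members and all gene lists were chosen with earlier results of these data known. Named were all members, of other lists up to 6 genes with the smallest p per comparison, any gene behind a count of 5 or fewer, and the closest relatives; Ranbp3l, Yap1, Dock4 and the marker genes shown were named after their values were seen. Positions are from Gencode vM21 (GRCm38), promoters from RefSeq. Intervals and floors cover counting error only.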

Additional observations from a re-analysis of the deposited data

How the results depend on the processing

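Between media the number of called targets was 2 and stayed at 2 with limma voom, DESeq2, the newer quasi-likelihood form, RLE factors and filterByExpr, and was 3 without the TPM filter. It was 0 on log2(TPM + 1) with limma (0 genes called of all, 2690 at unadjusted p under 0.05) and 0 without the replicate block, and ranged from 0 to 3 when pairs were left out. All genes called higher and lower numbered 816 and 818, but 314 and 267 with limma voom, 441 and 342 with DESeq2, 545 and 503 in the newer form, 1355 and 1517 without replicate 1, 1 and 0 without replicate 2, and 296 and 237 without replicate 3. The causes were not tested. Leaving out pairs, Ptpn14 ranged from -0.12 to 0.42, reversed without replicate 1 and without replicate 2 (-0.064), and Amotl2 from -0.051 to 0.40, reversed without replicate 1.

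In tumoroids the count was 10 under all alternatives but 2, where it was 9 through F3: without tumoroid replicate 3 and with WT-cM-titled organoids as the reference. Tumoroid numbers did not pair with organoids (r from -0.07 to 0.20), and the replicate block left 10 called. On log2(TPM + 1), 7675 genes were called higher and 1939 lower, against 4795 and 3370, where scale, pseudocount and test change together; RLE factors, which change scaling alone, gave 4535 and 3628. All 10 targets kept their direction under both. Depth limits Ankrd1, Ccdc80, Axl and Ptpn14 in organoids.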
